A study of Mus musculus with 6 samples.

Results

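Type I interferon response genes are described here in 2 kinds of cultured mouse T cell. A list of 40 genes was matched to the array by gene symbol, and 38 of them were measured under a single symbol, through 64 probe sets, out of 18193 genes in all. Rigi stands in the array's annotation as Ddx58. The probe set of Isg15 is shared with another gene and Ifi44 was not matched, so neither is given values. The cells of interest are CD8aa Tregs (titled 2D11, replicates 1, 2 and 4), and they were set against OT-1 CD8aa+TCRab+ T cells (titled OvacD8, replicates 1, 2 and 3), with 3 arrays per group. The title of the series calls the regulatory cells peripheral, Qa-1 restricted and CD8aa+TCRab+, and OT-1 names a transgenic T cell receptor for an ovalbumin peptide. All 6 samples are labelled as a T cell clone and were cultured in medium with IL-2, their antigen and antigen-presenting cells. The labels give no age, strain or treatment, and each group carries a single line name. The arrays of a group may therefore be repeats of 1 clone, so that p-values cover the spread among these arrays alone, and that spread may be technical.

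Cells that sense a type I interferon pass the signal from the receptor IFNAR through the kinases JAK1 and TYK2 to a complex that holds STAT2 and IRF9 and binds interferon-stimulated response elements in DNA. The genes switched on this way encode sensors of viral nucleic acid, enzymes and binding proteins that block viral RNA, and factors that amplify or end the response. Many of them also answer to interferon gamma, which activated CD8 T cells make.

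The deposited values are log2 values from which the median of the 6 arrays was taken away for every probe set, so 0 is the middle of the arrays and not a low level. A value shows how an array stood relative to the others, and it cannot be read whether the gene's signal was bright or near background. Cell markers can be checked for differences only. Cd8b1, which encodes CD8 beta, differed by -2.36 ± 0.11 on the log2 scale, lower in CD8aa Tregs (SE, n = 3 per group, limma adjusted p = 0.00093). It was thus higher in the OT-1 T cells although both kinds of cell are named CD8aa+, and its level in either cannot be read. Cd247, the CD3 zeta chain gene, differed by -0.90 ± 0.11 (limma adjusted p = 0.0151). Of 10 T cell markers these 2 were lower and 0 were higher, and 3 and 0 without OT-1 replicate 1, where Cd3d passed too (-0.89, adjusted p = 0.00577). Of all genes, 3.37% were lower and 3.3% higher over all arrays, and 9.4% and 7.8% without that array. The OT-1 arrays were not alike. Over 29581 probe sets spanning at least 0.1, r was 0.61 to 0.668 among the CD8aa Treg arrays and 0.856 between OT-1 replicates 2 and 3, but 0.293 and 0.343 between those and OT-1 replicate 1. Results are therefore also given without OT-1 replicate 1.

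The response genes stood lowest on the CD8aa Treg arrays and highest on OT-1 replicates 2 and 3. The median over the 38 genes was -0.16, -0.16 and -0.21 on CD8aa Treg replicates 1, 2 and 4, and 0.07, 1.10 and 1.12 on OT-1 replicates 1, 2 and 3. In the fit over all 6 arrays (limma, Benjamini-Hochberg over all genes, adjusted p under 0.05), 5 of the 38 were lower in CD8aa Tregs, 0 were higher and 33 did not pass. At an unadjusted p under 0.05, 23 members were lower and 0 higher, among 1654 lower and 1960 higher of all genes. Of all genes, 3.37% were lower and 3.30% were higher. The 5 genes were Ifit2, Ifit3, Rtp4, Irf9 and Rigi. Without OT-1 replicate 1, 29 of the 38 were lower and 0 were higher, against 9.40% and 7.80% of all genes. The median difference of the members was -1.01 over all arrays and -1.20 without OT-1 replicate 1, where the median of all genes was 0.01 both times. The 3 CD8aa Treg values lay below all 3 OT-1 values for 24 of the 38 genes and above them for 0, while 10.7% and 12.6% of all genes were separated in these directions. Without any one of the other 5 arrays, 2 members passed, Ifit2 and Ifit3 each time.

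**Figure D1:**
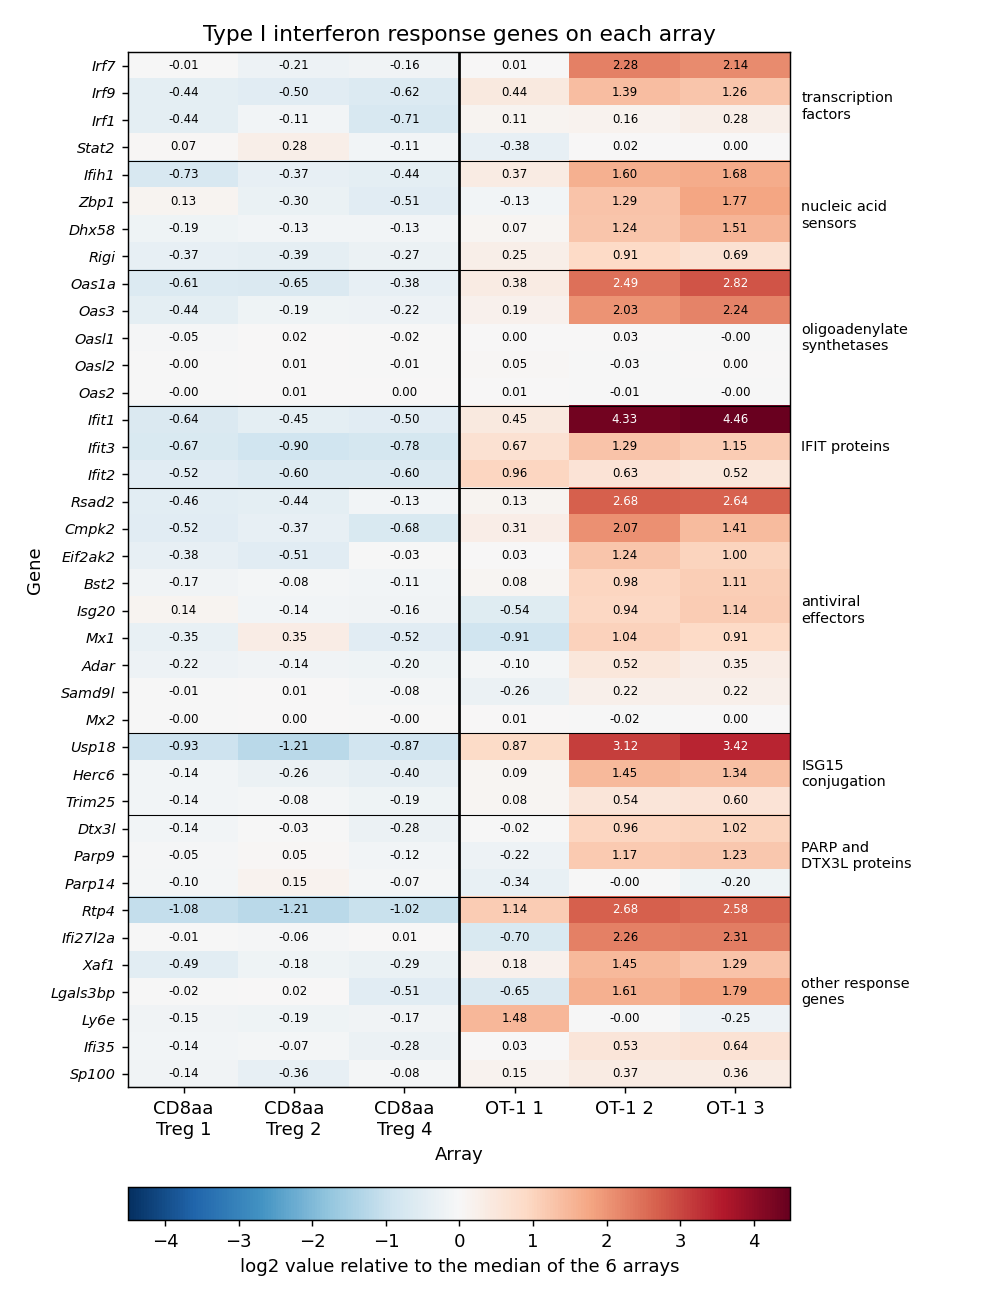
Each row is a gene and each column an array, CD8aa Tregs left of the line and OT-1 T cells right of it, with the log2 value relative to the median of the 6 arrays in colour and print. OT-1 replicates 2 and 3 carry the high values (Ifit1 at 4.33 and 4.46), OT-1 replicate 1 mostly lies between them and the CD8aa Tregs, and Oas2, Oasl1, Oasl2 and Mx2 are near 0 throughout.

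The factors that turn the response on differed in size. Irf9, which binds DNA in the complex with STAT2, stood at -0.44, -0.50 and -0.62 in CD8aa Tregs, against 0.44, 1.39 and 1.26 in OT-1 T cells. The groups did not overlap, and Irf9 was lower in CD8aa Tregs by -1.55 ± 0.27, a 2.93-fold difference (SE, n = 3 per group; limma adjusted p = 0.0403). It did not pass when any array other than OT-1 replicate 1 was left out (highest adjusted p = 0.14), nor with each array centred on its median (adjusted p = 0.0537). Irf7, the factor that amplifies interferon production, stood at -0.01, -0.21 and -0.16 in CD8aa Tregs, against 0.01, 2.28 and 2.14 in OT-1 T cells. Only OT-1 replicates 2 and 3 were high, and Irf7 did not pass over all arrays at -1.60 ± 0.66 (adjusted p = 0.282), but did without OT-1 replicate 1 at -2.34 ± 0.08 (adjusted p = 0.000703). Irf1, a factor induced most by interferon gamma, did not pass with or without that array (-0.60 and -0.64, adjusted p = 0.124 both times), although its CD8aa Treg values lay below all OT-1 values. Stat2, the partner of IRF9, did not pass either, at 0.20 ± 0.16 (adjusted p = 0.656).

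Among the sensors of viral RNA and DNA, Rigi was the one gene that passed over all arrays. It stood at -0.37, -0.39 and -0.27 in CD8aa Tregs, against 0.25, 0.91 and 0.69 in OT-1 T cells, a difference of -0.96 ± 0.18 (1.95-fold, limma adjusted p = 0.0459). All 3 of its probe sets were lower in CD8aa Tregs on average, by -1.32 to -0.34. Leaving out any array but OT-1 replicate 1 ended the call (highest adjusted p = 0.157), as did median centring (adjusted p = 0.0636), robust variances (adjusted p = 0.054) and the spike-in term described further on (adjusted p = 0.0518). Ifih1, which encodes the long-RNA sensor MDA5, stood at -0.73, -0.37 and -0.44 in CD8aa Tregs, against 0.37, 1.60 and 1.68 in OT-1 T cells. Its groups did not overlap, yet it did not pass at -1.73 ± 0.39 (adjusted p = 0.0783). Zbp1, a sensor of Z-form nucleic acid that can start cell death, stood at 0.13, -0.30 and -0.51 in CD8aa Tregs, against -0.13, 1.29 and 1.77 in OT-1 T cells, so OT-1 replicate 1 lay among the CD8aa Tregs. Dhx58, encoding LGP2, a regulator of these sensors, had a difference of -1.09 over all arrays (adjusted p = 0.222), averaged over probe sets with differences of -1.88, -1.40 and 0.003. Without OT-1 replicate 1, 4 of 4 sensors were lower in CD8aa Tregs, by -2.15 (Ifih1), -1.75 (Zbp1), -1.53 (Dhx58) and -1.15 (Rigi). In that fit 9.4% of all genes were lower.

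The IFIT genes, whose products bind viral RNA, held the widest difference and the steadiest ones. Ifit2 stood at -0.52, -0.60 and -0.60 in CD8aa Tregs, against 0.96, 0.63 and 0.52 in OT-1 T cells. OT-1 replicate 1 was here the highest of all arrays, and Ifit2 was lower in CD8aa Tregs by -1.27 ± 0.12 (2.42-fold, limma adjusted p = 0.00793). Ifit3 stood at -0.67, -0.90 and -0.78 in CD8aa Tregs, against 0.67, 1.29 and 1.15 in OT-1 T cells, with a difference of -1.82 ± 0.18 (3.53-fold, adjusted p = 0.00841). Both genes passed in all 6 fits that left out 1 array, with a highest adjusted p of 0.0439 each. Ifit1 stood at -0.64, -0.45 and -0.50 in CD8aa Tregs, against 0.45, 4.33 and 4.46 in OT-1 T cells. Its spread within the OT-1 group was wider than the gap between the groups' nearest arrays, and it did not pass at -3.61 ± 1.18 (adjusted p = 0.179). Without OT-1 replicate 1 the Ifit1 difference was -4.93 ± 0.08 (adjusted p = 0.000122), the largest among the members in that fit. Ifit2 and Ifit3 are next to each other among the protein-coding genes of chromosome 19, where Ifit1 also lies.

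Promoters are shown for a pair of members on which OT-1 replicate 1 departed and a pair on which the OT-1 arrays agreed, to set their response elements side by side. Each window runs from 250 bases before to 50 bases after a gene's start (RefSeq, GRCm38.p6), in the direction of the gene. Capitals mark matches to GAAA, any 2 bases and GAAA again, on either strand (a core of the interferon-stimulated response element) or to TTCNNNGAA (a core of the gamma-activated site, which reads the same on both strands). These letters do not overlap each other in the windows shown.
Ifit1 promoter, chr19:34640639-34640938, plus strand: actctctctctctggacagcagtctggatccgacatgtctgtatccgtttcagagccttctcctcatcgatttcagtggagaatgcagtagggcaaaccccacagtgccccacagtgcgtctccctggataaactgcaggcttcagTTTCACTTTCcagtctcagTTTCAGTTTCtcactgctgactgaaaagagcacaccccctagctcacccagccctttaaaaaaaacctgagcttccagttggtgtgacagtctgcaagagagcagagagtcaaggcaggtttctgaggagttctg
Rsad2 promoter, chr12:26456403-26456702, minus strand: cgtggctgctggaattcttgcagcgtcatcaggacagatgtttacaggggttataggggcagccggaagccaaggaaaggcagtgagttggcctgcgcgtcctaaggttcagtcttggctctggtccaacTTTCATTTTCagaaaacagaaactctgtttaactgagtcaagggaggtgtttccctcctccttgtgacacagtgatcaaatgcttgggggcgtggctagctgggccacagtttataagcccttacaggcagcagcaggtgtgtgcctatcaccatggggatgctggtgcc
Ifit2 promoter, chr19:34550444-34550743, plus strand: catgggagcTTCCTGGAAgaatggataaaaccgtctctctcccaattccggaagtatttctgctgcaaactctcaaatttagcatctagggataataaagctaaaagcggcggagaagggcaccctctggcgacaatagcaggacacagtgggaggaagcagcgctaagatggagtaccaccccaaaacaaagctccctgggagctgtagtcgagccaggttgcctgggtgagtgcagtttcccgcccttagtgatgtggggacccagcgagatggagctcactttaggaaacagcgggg
Irf1 promoter, chr11:53769764-53770063, plus strand: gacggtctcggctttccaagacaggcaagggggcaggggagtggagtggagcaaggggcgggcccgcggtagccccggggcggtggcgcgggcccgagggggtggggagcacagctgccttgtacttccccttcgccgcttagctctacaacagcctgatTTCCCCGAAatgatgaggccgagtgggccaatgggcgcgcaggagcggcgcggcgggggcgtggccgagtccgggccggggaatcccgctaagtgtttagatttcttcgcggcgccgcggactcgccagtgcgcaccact

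The Ifit1 window held 2 matches to the response element core, TTTCACTTTC at bases -104 to -95 and TTTCAGTTTC at bases -85 to -76 from the start, both on the strand opposite the gene. The Rsad2 window held 1, TTTCATTTTC at bases -120 to -111. In the windows of Ifit2 and Irf1 the match was to the gamma-activated site core, TTCCTGGAA at bases -241 to -233 and TTCCCCGAA at bases -90 to -82. Ifit2 and Irf1 each had 2 windows, of which 1 is shown. Windows for Lgals3bp and Sp100, chosen by the same rule, held no match to either core. Windows were on hand for 27 of the 38 members, and 10 of them (37.0%) held the response element core, against 1079 of 27025 genes with a window (3.99%) and 3.44% of all windows. By how OT-1 replicate 1 stood, the core lay in 7 of 15 members on which it departed below, 1 of 7 on which the OT-1 arrays agreed and 2 of 5 others. Among the members on which the arrays agreed, 2 with a window spanned less than 0.1, and these held neither core. The gamma-activated site core lay in 8 of 27 members (29.6%), against 9.55% of genes and 8.30% of all windows. By class it lay in 4 of 15 members with a departure below (26.7%), 2 of 7 on which the arrays agreed (28.6%) and 2 of 5 others, so the windows shown do not stand for a contrast between the classes in this core. A match describes these letters and is not a measured binding site.

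Of the 5 oligoadenylate synthetase genes, whose enzymes make a signal that starts RNA decay or, for the OASL proteins, shape RNA sensing, 0 passed over all arrays, and 2 were lower and 0 higher at an unadjusted p under 0.05. Oas1a stood at -0.61, -0.65 and -0.38 in CD8aa Tregs, against 0.38, 2.49 and 2.82 in OT-1 T cells (-2.45 ± 0.69, limma adjusted p = 0.132). Oas3 stood at -0.44, -0.19 and -0.22 in CD8aa Tregs, against 0.19, 2.03 and 2.24 in OT-1 T cells (-1.77 ± 0.59, adjusted p = 0.185). For both genes OT-1 replicate 1 lay above every CD8aa Treg array and far below the other OT-1 arrays, and both passed without it, at -3.20 ± 0.14 (adjusted p = 0.00109) and -2.42 ± 0.11 (adjusted p = 0.00122). Oas2, next to Oas3 on chromosome 5, spanned 0.0252 over the 6 arrays, and the neighbours Oasl1 and Oasl2 spanned 0.0734 and 0.0772.

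OT-1 replicate 1 departed below on 6 of the 9 genes of direct antiviral effectors. Over all arrays 0 of the 9 passed, and 5 were lower and 0 higher at an unadjusted p under 0.05. Rsad2, encoding viperin, which makes a chain-terminating nucleotide, stood at -0.46, -0.44 and -0.13 in CD8aa Tregs, against 0.13, 2.68 and 2.64 in OT-1 T cells (-2.16 ± 0.76, limma adjusted p = 0.208). Its neighbour on chromosome 12, Cmpk2, a nucleotide kinase gene, stood at -0.52, -0.37 and -0.68 in CD8aa Tregs, against 0.31, 2.07 and 1.41 in OT-1 T cells. For both neighbours the CD8aa Treg values lay below all OT-1 values. Mx1, a GTPase that blocks viral replication complexes, stood at -0.35, 0.35 and -0.52 in CD8aa Tregs, against -0.91, 1.04 and 0.91 in OT-1 T cells. Isg20, an RNA exonuclease gene, stood at 0.14, -0.14 and -0.16 in CD8aa Tregs, against -0.54, 0.94 and 1.14 in OT-1 T cells. On these last genes OT-1 replicate 1 was the lowest of all 6 arrays. Bst2, encoding tetherin, Eif2ak2, encoding the kinase PKR, Adar, an RNA editing enzyme gene, and Samd9l, a growth and antiviral factor gene, had differences of -0.84, -1.07, -0.45 and -0.09. Without OT-1 replicate 1, 7 of the 9 were lower in CD8aa Tregs, against 9.4% of all genes. The exceptions were Mx1 at -1.15 ± 0.29 (adjusted p = 0.0793) and Mx2, a relative of Mx1, which spanned 0.0325 over the 6 arrays.

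ISG15 is a ubiquitin-like protein that is induced by interferon and attached to other proteins. Usp18, which removes it and restrains the interferon receptor, stood at -0.93, -1.21 and -0.87 in CD8aa Tregs, against 0.87, 3.12 and 3.42 in OT-1 T cells. The groups did not overlap, but at -3.48 ± 0.73 Usp18 did not pass over all arrays (11.1-fold, limma adjusted p = 0.0637). It did at -4.27 ± 0.15 without OT-1 replicate 1 (adjusted p = 0.000702). Herc6, the mouse ligase for ISG15, and Trim25, a ligase that aids RIG-I, had differences of -1.22 and -0.54 over all arrays (adjusted p = 0.177 and 0.132), and of -1.66 and -0.71 without OT-1 replicate 1, where both passed. Parp9 and Dtx3l, which encode partners in ADP-ribosylation and ubiquitination, are neighbours on chromosome 16. Parp9 stood at -0.05, 0.05 and -0.12 in CD8aa Tregs, against -0.22, 1.17 and 1.23 in OT-1 T cells. Dtx3l stood at -0.14, -0.03 and -0.28 in CD8aa Tregs, against -0.02, 0.96 and 1.02 in OT-1 T cells. OT-1 replicate 1 lay below every CD8aa Treg array on Parp9 and just above every one on Dtx3l. Parp14, the next gene on that chromosome and also an ADP-ribosyltransferase gene, spanned 0.493 and did not pass (0.17 ± 0.11, adjusted p = 0.558), with probe sets at -0.13 and 0.47.

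Of the remaining 7 response genes, Rtp4 alone passed over all arrays. Rtp4, a transmembrane chaperone and RNA-binding inhibitor of viruses, stood at -1.08, -1.21 and -1.02 in CD8aa Tregs, against 1.14, 2.68 and 2.58 in OT-1 T cells, a difference of -3.23 ± 0.45 (9.41-fold, limma adjusted p = 0.0218). This is the mean of a probe set at -6.14 and another at -0.33, and the call ended when any array but OT-1 replicate 1 was left out (highest adjusted p = 0.091). OT-1 replicates 1, 2 and 3 stood at 1.87, 5.21 and 5.08 on the first of these probe sets. On the second they stood at 0.41, 0.14 and 0.08, with OT-1 replicate 1 the highest. Ifi27l2a, a small membrane protein gene, stood at -0.01, -0.06 and 0.01 in CD8aa Tregs, against -0.70, 2.26 and 2.31 in OT-1 T cells. Lgals3bp, which encodes a secreted galectin ligand, stood at -0.02, 0.02 and -0.51 in CD8aa Tregs, against -0.65, 1.61 and 1.79 in OT-1 T cells. On both, OT-1 replicate 1 lay below every CD8aa Treg array while the other OT-1 arrays lay above them. Xaf1, which encodes a promoter of apoptosis, stood at -0.49, -0.18 and -0.29 in CD8aa Tregs, against 0.18, 1.45 and 1.29 in OT-1 T cells. Ly6e, a surface protein gene, went the other way on OT-1 replicate 1: it stood at -0.15, -0.19 and -0.17 in CD8aa Tregs, against 1.48, -0.005 and -0.25 in OT-1 T cells. These are means of a probe set with a difference of -1.13 and another at -0.02. On the first, OT-1 replicates 1, 2 and 3 stood at 1.34, 0.31 and 0.46, all above the CD8aa Tregs. On the other they stood at 1.62, -0.32 and -0.95. Ifi35, a regulator of innate signalling, and Sp100, a nuclear body protein gene, had differences of -0.56 and -0.49 (adjusted p = 0.164 and 0.0607), and both were lower without OT-1 replicate 1, at -0.75 and -0.56.

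**Figure D2:**
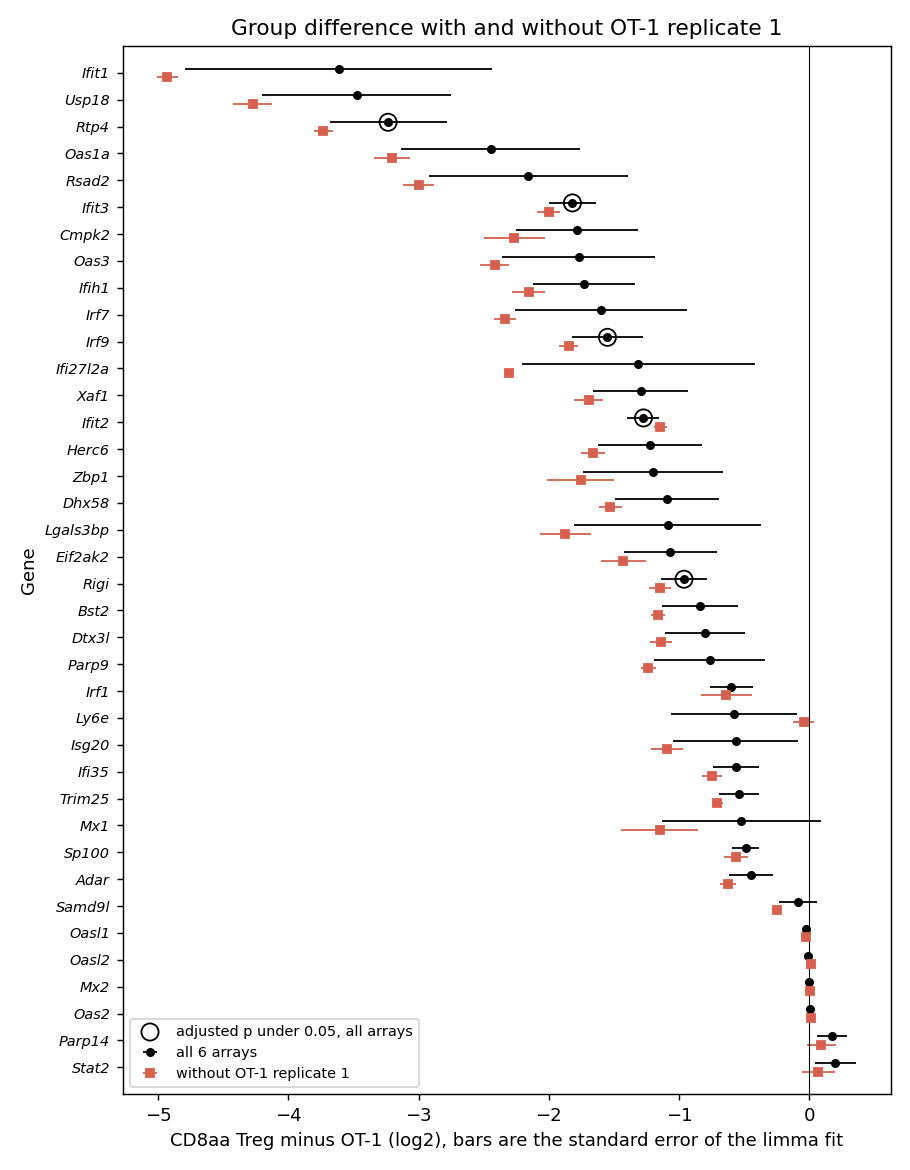
The log2 difference of CD8aa Tregs minus OT-1 T cells is plotted for each gene with the standard error of the limma fit, over all 6 arrays (black) and without OT-1 replicate 1 (red), with rings on the 5 genes that passed over all arrays. Bars shorten for most genes without that array, as for Ifit1 at -3.61 ± 1.18 with it and -4.93 ± 0.08 without it, while Ifit2 keeps short bars both ways.

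How OT-1 replicate 1 stood divided the members. It was said to depart when it lay at least 0.5 (1.41-fold) outside the interval between OT-1 replicates 2 and 3 and farther than those lay apart, and the OT-1 arrays were said to agree when they spanned less than 0.5. By this rule it departed below for 22 of the 38 genes, against 5.85% of all genes, and above for 1, Ly6e, against 3.13%. The arrays agreed on 10 genes, against 84.3% of all genes, and 5 fell in neither class, against 6.76%. As a single array has no replicate, this is a description without a test. In the 22 genes the departure from the nearer array ran from -3.88 (Ifit1) to -0.82 (Irf9), with a median of -1.43, while OT-1 replicates 2 and 3 lay a median of 0.136 apart. No departing member lay close to the threshold, the nearest being Irf9 (-0.82) and Bst2 (-0.91). The count depended on the rule, with 29 members at a size of 0.25 and 18 at a size of 1. It was 27 when each gene was read from its probe set with the widest range. Just outside it stood Ifi35 (-0.497), Samd9l (-0.48), Ifit3 (-0.476), Trim25 (-0.467), Adar (-0.451) and Rigi (-0.443).

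On most departing genes OT-1 replicate 1 did not lie among the CD8aa Tregs, though at times it lay close to them. Of the 22 departing genes it lay above all 3 CD8aa Treg arrays in 16, below all 3 in 5 and among them in 1, Zbp1. Over all genes on which it departed below, these positions were taken by 34.9% (above) and 42.3% (below). For some of the 16 the gap was small. OT-1 replicate 1 and the highest CD8aa Treg array stood at -0.02 and -0.03 on Dtx3l. They stood at 0.01 and -0.01 on Irf7 and at 0.03 and -0.03 on Eif2ak2. The CD8aa Treg mean minus OT-1 replicate 1 was farthest below 0 for Rtp4 (-2.24), Usp18 (-1.88), Ifit1 (-0.98), Irf9 (-0.96) and Oas1a (-0.93). For these genes in the same order, the CD8aa Treg mean minus OT-1 replicates 2 and 3 was -3.73, -4.27, -4.93, -1.85 and -3.20. The 5 genes with OT-1 replicate 1 below the CD8aa Tregs were Mx1 (0.73), Ifi27l2a (0.68), Lgals3bp and Isg20 (0.48 and 0.49) and Parp9 (0.18). The median of the 22 was -0.35 against OT-1 replicate 1 and -1.86 against the other pair. The rule that chose the 22 fixed in advance that each gene's difference is lower against that pair.

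**Figure D3:**
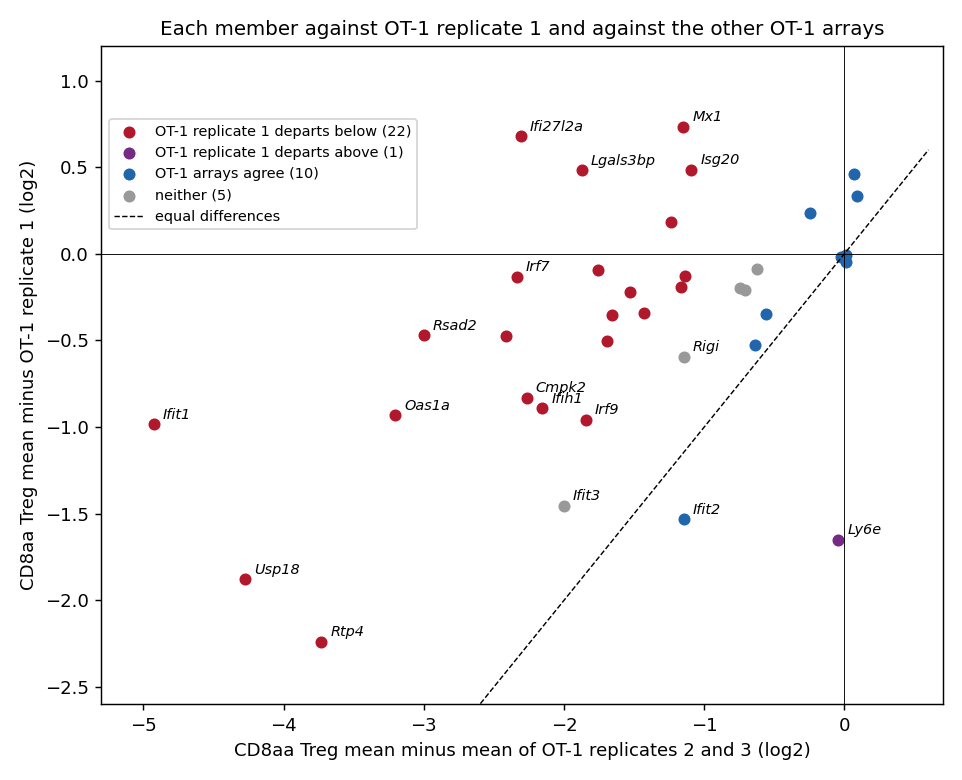
Each point is a member, with the CD8aa Treg mean minus the mean of OT-1 replicates 2 and 3 on the x axis and minus OT-1 replicate 1 on the y axis, both in log2 units. The 22 genes on which OT-1 replicate 1 departed below lie above the dashed line of equal differences, which the rule that chose them requires. Ifit2 and Ly6e lie below that line, and 5 of the 22 lie above 0 on the y axis.

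The 10 genes on which the OT-1 arrays agreed were of 2 kinds. Oas2, Oasl1, Oasl2 and Mx2 spanned less than 0.1 over all 6 arrays, as did 33.0% of all genes, and can show no split. The others were Ifit2, Irf1, Sp100, Stat2, Parp14 and Samd9l. In Ifit2, Irf1 and Sp100 the CD8aa Treg arrays lay below all OT-1 arrays, and in Stat2, Parp14 and Samd9l OT-1 replicate 1 lay below all CD8aa Treg arrays, with CD8aa Treg means 0.46, 0.33 and 0.23 above it. This holds for gene means, and probe sets differed. OT-1 replicates 1, 2 and 3 stood at -0.03, 0.80 and 0.67 on 1 Sp100 probe set and at 0.34, -0.06 and 0.06 on the other. The groups overlapped on each. They stood at -0.65, 0.03 and -0.08 on a Stat2 probe set, and at -0.85, 0.0004 and -0.40 on a Parp14 probe set.

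Other measurements moved with this division. The 12 probe sets of the bacterial poly-A controls, spiked into RNA as labelling controls, averaged -0.10, 0.10 and 0.79 in CD8aa Tregs, against 0.47, -1.59 and -2.26 in OT-1 T cells, so that OT-1 replicates 2 and 3 stood apart by these too. If OT-1 replicate 1 is left out, every remaining OT-1 array is on one side and every CD8aa Treg array on the other, and group and split cannot be told apart. A fit that adds the split compares CD8aa Tregs with OT-1 replicate 1 only, and assumes that this single array varies like the rest, so its calls rest on 1 OT-1 array with no replicate. In that fit 7 members were lower in CD8aa Tregs, against 4.66% of all genes, and 1 was higher, against 2.83%. The 7 were Rtp4 (-2.24), Usp18 (-1.88), Ly6e (-1.65), Ifit2 (-1.53), Ifit3 (-1.45), Ifit1 (-0.98) and Irf9 (-0.96), and the gene that was higher was Ifi27l2a (0.68).

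The cultures held antigen-presenting cells, whose markers were followed as well. Of 8 myeloid markers, 0 passed over all arrays (2 lower and 0 higher at an unadjusted p under 0.05), and their mean was -0.06, -0.20 and 0.10 in CD8aa Tregs, against 0.98, 0.27 and 0.15 in OT-1 T cells. Lyz2 and Mpeg1, genes of phagocytes, were highest on OT-1 replicate 1, at 2.70 and 3.27, where most response genes were low for an OT-1 array. Csf1r was highest there too, at 1.17, and Lyz2 was lowest on OT-1 replicates 2 and 3, at -1.91 and -2.82. Cd68, a lysosomal protein gene, and Cd14, a receptor gene for bacterial lipids, were highest on OT-1 replicates 2 and 3, as the response genes were. Cd68 stood at -0.71, -0.51 and -0.48 in CD8aa Tregs, against 0.48, 3.34 and 3.44 in OT-1 T cells. Cd14 stood at -0.20, -0.35 and -0.27 in CD8aa Tregs, against 0.20, 0.66 and 0.75 in OT-1 T cells. When OT-1 replicate 1 was left out, Cd68 (-3.96, limma adjusted p = 0.000284) and Cd14 (-0.98, adjusted p = 0.00202) were lower in CD8aa Tregs and Lyz2 was higher (2.56, adjusted p = 0.036). Adgre1, a macrophage marker, spanned less than 0.1, and 5 of 6 B cell markers and 3 of 7 dendritic cell markers did too. The means of the B cell markers ran from -0.01 to 0.02 in CD8aa Tregs, against -0.02 to 0.01 in OT-1 T cells, and those of the dendritic cell markers from -0.03 to 0.06, against -0.03 to 0.11. Of the dendritic cell markers, Irf8 stood at -0.13, 0.13 and -0.53 in CD8aa Tregs, against -0.27, 0.86 and 0.76 in OT-1 T cells. Irf8 did not pass with or without OT-1 replicate 1 (limma adjusted p = 0.478 and 0.0519). The part of the controls and of other cells in the response genes was not tested, and fewer cells of a type cannot be told apart from less RNA per cell in these bulk samples.

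**Figure D4:**
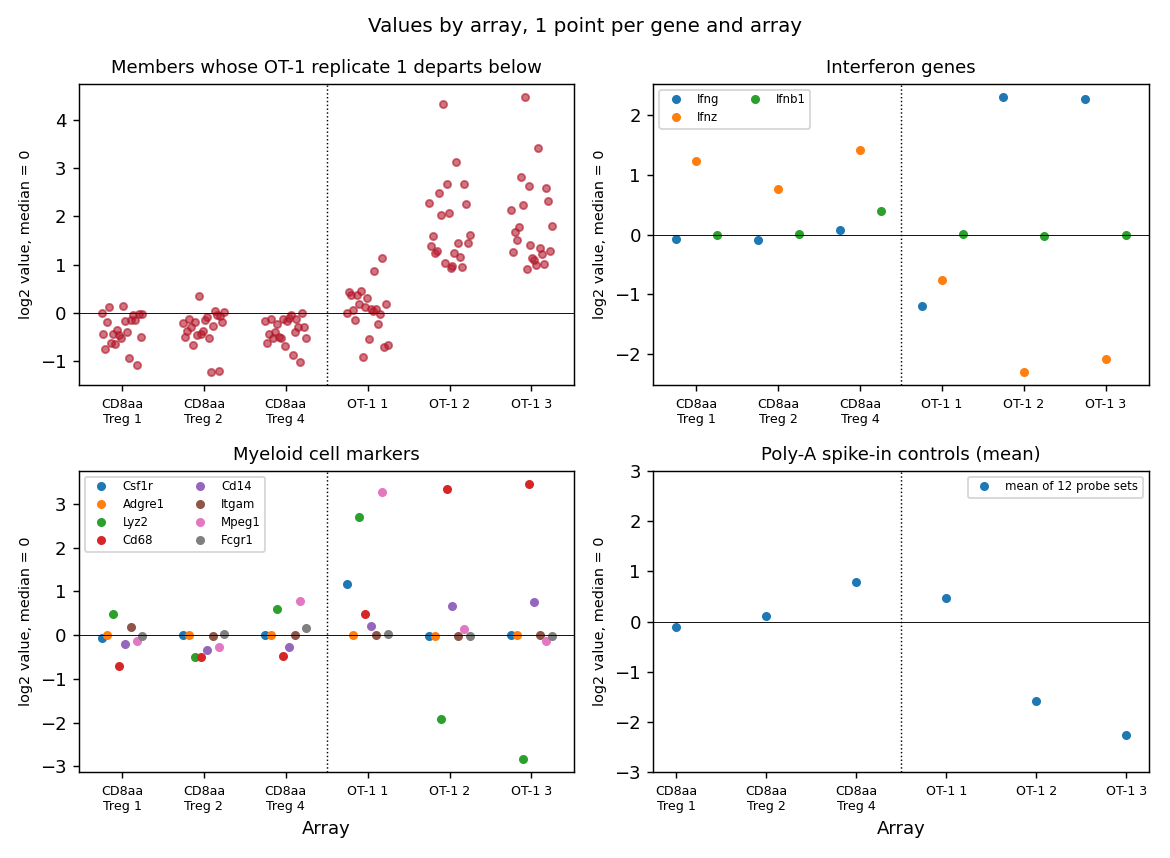
Log2 values relative to the median of the 6 arrays are plotted by array, 1 point per gene, for the 22 members on which OT-1 replicate 1 departed below, for 3 interferon genes, for 8 myeloid markers and for the mean of 12 poly-A control probe sets. The members, Ifng and Cd68 are high on OT-1 replicates 2 and 3, where the controls are low, at -1.59 and -2.26. Other myeloid markers differ: Cd14 is also highest on these arrays, Lyz2 is lowest on them (-1.91 and -2.82), and Mpeg1 and Csf1r are highest on OT-1 replicate 1 (3.27 and 1.17).

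Genes that make, carry or restrain the signal went both ways. Of 50 such genes listed by role, 41 were measured under a single symbol. Over all arrays 2 were lower and 2 were higher in CD8aa Tregs (6 and 4 at an unadjusted p under 0.05), against 3.37% and 3.3% of all genes. Without OT-1 replicate 1 there were 5 and 5, against 9.4% and 7.8% of all genes. Counts this small do not set the list apart from all genes. The median difference of the 41 was 0.01, against -1.01 for the response genes, and this contrast was not tested. OT-1 replicate 1 departed below on 4 of the 41, Ifng, Ifngr1, Irf8 and Ticam1, against 5.85% of all genes. It departed above on 5, Ifnz, Ifnar2, Il10rb, Cgas and Ptpn6, against 3.13% of all genes.

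Among 10 interferon genes, Ifnz, a type I interferon of the mouse, passed as higher. It stood at 1.24, 0.76 and 1.41 in CD8aa Tregs, against -0.76, -2.30 and -2.09 in OT-1 T cells, a difference of 2.86 ± 0.47 (limma adjusted p = 0.0337) on its single probe set. It did not pass when any array but OT-1 replicate 1 was left out (highest adjusted p = 0.126). Ifng, encoding interferon gamma, stood at -0.07, -0.09 and 0.07 in CD8aa Tregs, against -1.20, 2.30 and 2.28 in OT-1 T cells, with OT-1 replicate 1 below every CD8aa Treg array as for Ifi27l2a and Lgals3bp. Ifng did not pass over all arrays (-1.16, adjusted p = 0.711) but was lower without OT-1 replicate 1 (-2.32, adjusted p = 0.000357), where Ifnz was again higher. Ifnb1 and the 7 other interferon genes did not pass in either fit, and 5 of the 10 spanned less than 0.1.

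Of 9 receptors and receptor kinases, 0 were higher and 1 was lower, Jak2, a kinase of the interferon gamma receptor, at -0.32 ± 0.05 (limma adjusted p = 0.0255). The receptor chains of type I interferon, Ifnar1 and Ifnar2, did not pass at 0.16 ± 0.19 and -0.17 ± 0.20 (adjusted p = 0.787 and 0.802). OT-1 replicates 1, 2 and 3 stood at 0.29, -0.21 and -0.38 on Ifnar1 and at 0.62, -0.06 and -0.07 on Ifnar2. Of 5 other factors, Irf5, which drives inflammatory cytokine genes, was lower at -0.96 ± 0.06 (adjusted p = 0.00184), over probe sets from -1.81 to -0.10, and passed in all 6 fits that left out 1 array. Of 9 genes that detect nucleic acid and start interferon production, Ikbke, a kinase of the factors IRF3 and IRF7, was higher at 0.73 ± 0.13 (adjusted p = 0.0379), and 0 were lower. Among 8 negative regulators 0 passed over all arrays (0 higher and 1 lower at an unadjusted p under 0.05). Without OT-1 replicate 1, 2 were higher, the phosphatase genes Ptpn6 (0.65, limma adjusted p = 0.00464) and Ptpn1 (0.17, adjusted p = 0.0232), and 0 were lower. Of these 8, Socs1 had the widest range, at 0.75, 0.37 and -0.003 in CD8aa Tregs, against 0.003, -0.17 and -0.09 in OT-1 T cells. The receptors and kinases gave, without OT-1 replicate 1, 0 higher and 2 lower (Ifngr1 joining at -1.19), the other factors 0 higher and 1 lower, and the genes that start production 2 higher and 1 lower (Tbk1 at 0.34 and Ticam1 at -1.16 joining). With 1 array left out, Jak2 passed in 2 of 6 fits and Ikbke in 1 of 6 (highest adjusted p = 0.1 and 0.131).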

How the data were processed

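The 6 arrays each held 45101 mouse probe sets for RNA levels. Per the labels' protocols, RNA was extracted with an RNeasy kit, amplified with the Ovation system and labelled with biotin, and per the submitters' processing notes the authors made the values with RMA, of a version not stated. The log2 values the authors deposited had a median within 5.0e-07 of 0 for every probe set, so levels and depth are unknown. The base is not given in the sources used here, but 1 probe set ranged over 11.37, which natural logs of a 16-bit scan (11.09) could not reach.

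Control probe sets (64) were left out. The array's annotation gave 34945 others 1 symbol and 932 several, and 9160 were not listed. Of the 34945, 34741 matched a RefSeq table by Entrez identifier, with 0 symbols changed. The mean over a gene's probe sets was its value (18193 genes). RMA draws dim probe sets together, so differences near background are understated. Groups came from the titles. The comparison used limma 3.58.1 (lmFit, eBayes, two-sided) under R 4.3.3 and Benjamini-Hochberg adjustment over all genes, and the fit was tested on simulated data. Python 3.11.15 and pandas 2.3.3 were used for the rest.

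The members, lists, tests and alternatives were chosen with earlier results of these data known. Every measured member is named. Values on all arrays are given for the members that passed, the 12 with the largest departure of OT-1 replicate 1 and the 4 widest of the rest, besides others set beside them. Of each pathway list, up to 3 genes that passed or the widest are named. Ifng, Ifnb1, Ifnar1, Ifnar2, Ifngr1, Il10rb, Irf8, Cgas, Tbk1, Ticam1, Ptpn1, Ptpn6 and the markers were named after their values were seen. Replicate numbers 1 and 2 occur in both groups, and same-numbered arrays deviated from their group means with correlations of 0.00 and 0.17 over 12198 genes, so the numbers were not treated as pairs. The alternatives left out each array, added a replicate block, the spike-in split, array weights or robust variances, rescaled the arrays, chose other probe sets or filtered on range. A fit on single probe sets was chosen after seeing the data.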

Additional observations from a re-analysis of the deposited data

How the results depend on the processing

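Of 5 members lower in CD8aa Tregs over all arrays, leaving out 1 array gave 2 to 29, the 29 without OT-1 replicate 1. The count was 0 with the replicate block, 3 with median centring, 9 with genes spanning at least 0.1, 26 with array weights and 3 with single probe sets. No member was higher, except 1 when the spike-in split was added. Ifit2 and Ifit3, which passed in the 6 fits without 1 array, did not pass with the replicate block (adjusted p = 0.0529 and 0.112), a fit with 1 residual degree of freedom. Members with a sign that turned were Oas2 (-0.0032 to 0.0094 with 1 array left out, -0.0070 with quantile normalization, -0.0036 with median centring, -0.0095 with the spike-in split), Oasl2 (-0.026 to 0.013 with 1 array left out), Mx2 (-0.00025 without CD8aa Treg replicate 2, -0.0086 to 0.0076 over the fits with 1 array left out, -0.011 with quantile normalization, -0.0055 with median centring, -0.0041 with array weights, -0.012 with the spike-in split) and Samd9l (0.020 with the replicate block). Adding the spike-in split turned the signs of Mx1 (0.73), Isg20 (0.49), Samd9l (0.23), Parp9 (0.18), Ifi27l2a (0.68) and Lgals3bp (0.48) as well. Over all genes, 614 lower and 600 higher became 279 to 1710 and 244 to 1419 with 1 array left out, 125 and 77 with the replicate block, and 1870 and 1978 with array weights. The share of higher calls was 49.4%, against 38.1% with quantile normalization. Of the other pathway genes, 2 lower and 2 higher became 1 to 5 and 0 to 5 with 1 array left out, 0 and 0 with the replicate block and 5 and 6 with array weights. They were 1 lower with the widest probe set and 1 higher with median centring. OT-1 replicate 1 departed below for 29 members at a size of 0.25, 18 at a size of 1, 27 with the widest probe set and 21 with quantile normalization. It departed above for 2 members at a size of 0.25 or with quantile normalization, and the OT-1 arrays agreed on 6 members at a size of 0.25 and 16 at a size of 1. The cause of these changes was not tested. The weight of each array was estimated by a gene-by-gene update, because the usual estimation did not converge.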
